A study of Mus musculus with 21 samples.

Results

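Erythroid and heme synthesis genes carry the RNA of developing red cells: globin chains, enzymes that build heme, proteins of the red cell membrane and its skeleton, the transcription factors that switch these genes on, receptors, and red cell enzymes. The members are a list of 33 such genes, named with earlier results of these data known and looked up by symbol among the 26852 genes of the cherry normalized count table. Symbols were matched for 32 of them, all except Ahsp, which is not analysed here. A filter on low values, a mean of at least 10 normalized counts over all libraries (3.32 on the log2 scale), left 24 members among 12976 tested genes, and 8 members fell below it. Epb42, Slc4a1, Klf1 and Tal1 passed only through the early leukemia libraries, where they are high, so counts over the tested members describe those genes and support nothing about the list.

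The study sequenced RNA of bone marrow mesenchymal cells with a low Nestin reporter signal (Nes-low), to follow how the marrow niche changes as human acute myeloid leukemia (AML) grows in it. Bones were digested with enzymes, human and mouse blood cells were depleted on magnetic beads, and the rest were stained for CD45 and for Ter119, an antigen of red cell precursors, before sorting. Very small RNA inputs were amplified before sequencing, which limits what a weak signal can say. Every mouse was a Nestin+ NSG mouse, an immunodeficient strain carrying a Nestin-driven fluorescent reporter, and engrafted mice were transplanted without conditioning at 8 to 12 weeks of age.

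Each of the 7 groups held 3 libraries, 21 in all. The ctrl mice were unengrafted and untreated. The other mice were engrafted with HL60 or ML1, both human AML cell lines, and each line stands for 1 leukemia only. Early in leukemic progression, cells were split by a cherry label that the leukemia cells release and nearby cells take up: HL60 early ch+ and ML1 early ch+ carried it, HL60 early ch- and ML1 early ch- did not. HL60 late and ML1 late were isolated at late time points with no cherry sort. The treatment field of the ML1 late libraries reads unengrafted, against their titles and time point, so results on ML1 late rest on the titles, and HL60 late gives the late values without them. The extraction text names CD31+ endothelial cells although the cell type field names Nes-low mesenchymal cells.

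Red cells form from marrow progenitors under erythropoietin, and as they mature they fill with globin chains and heme and rebuild their membrane around band 3 and spectrin, before losing the nucleus and, later, their RNA. Heme is built in steps shared between mitochondria and cytosol, and the erythroid form of the first enzyme is encoded by Alas2. Globin chains are made mainly in the erythroid lineage, while heme synthesis itself also runs in other cells.

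The values are regularized log2 normalized counts, and differences between groups are given on that scale with their standard error. Low genes vary less on this scale (the median SD was 0.21 for genes with a mean between 0 and 2, and 0.59 between 4 and 6), so differences of low genes are understated. Summed normalized signal per library, divided by 10 to the power of 6, was 11.9 to 14.2 in ctrl, 12.3 to 13.6 in HL60 early ch-, 11.2 to 12.7 in HL60 early ch+, 13.8 to 14.7 in ML1 early ch- and 12.4 to 12.6 in ML1 early ch+. It was lower in the late libraries, at 8.41 to 9.02 in HL60 late and 7.27 to 7.46 in ML1 late. The gene with the highest value, CT010467.1, held 31.8% of the sum in ctrl, 25.1% in HL60 late and 20.2% in ML1 late. No label gives the time of processing, so its part in the differences between stages was not tested. The numbers in the library titles run from 523 to 546 in the early groups. They run from 373 to 399 in ctrl and HL60 late, and from 581 to 583 in ML1 late. What these numbers stand for is not stated, so early stage and any difference in processing cannot be told apart. Separate animals are not stated for the 3 libraries of a group, so p-values measure the spread between these libraries, which may be technical. Libraries named after the word without were left out 1 at a time.

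The adult globin genes were far higher in all 4 early groups than in ctrl and lower than ctrl in both late groups. Hbb-bs (ENSMUSG00000052305), a chain of adult beta globin, was 7.15, 7.73 and 7.90 in the ctrl libraries. It was 11.81, 11.79 and 11.17 in HL60 early ch- and 11.95, 12.47 and 10.90 in HL60 early ch+. It was 11.71, 12.08 and 11.73 in ML1 early ch- and 12.28, 11.44 and 11.84 in ML1 early ch+. All 12 early libraries lay above every ctrl library. In late leukemia Hbb-bs was 4.77, 4.64 and 4.63 with HL60 and 4.49, 4.44 and 4.87 with ML1, all 6 below every ctrl library. Hba-a1 (ENSMUSG00000069919), an adult alpha globin chain, was 5.63, 6.67 and 8.03 in ctrl, the widest spread of the 4 globins in that group. It was 10.80, 11.08 and 10.30 in HL60 early ch-, 11.10, 11.80 and 10.01 in HL60 early ch+, 10.87, 11.67 and 11.08 in ML1 early ch- and 11.71, 10.41 and 11 in ML1 early ch+. It was 5.26, 4.14 and 4.24 in HL60 late and 4.65, 3.93 and 4.13 in ML1 late. Here too the 3 stages did not overlap.

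Hba-a2 (ENSMUSG00000069917) and Hbb-bt (ENSMUSG00000073940) are near copies of these genes, and the authors' counting divides shared reads by estimate, so the split within each pair is uncertain. Hba-a2 was 5.34, 5.66 and 6.18 in ctrl, 8.34 to 10.14 in the early libraries and 3.38 to 3.84 in the late ones. Hbb-bt was 6.15, 4.77 and 6.41 in ctrl, 9.66 to 10.99 in the early libraries and 3.69 to 4.18 in the late ones. Neither gene's stages overlapped. In bulk RNA, fewer cells of a type and less RNA per cell cannot be told apart.

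**Figure D1:**
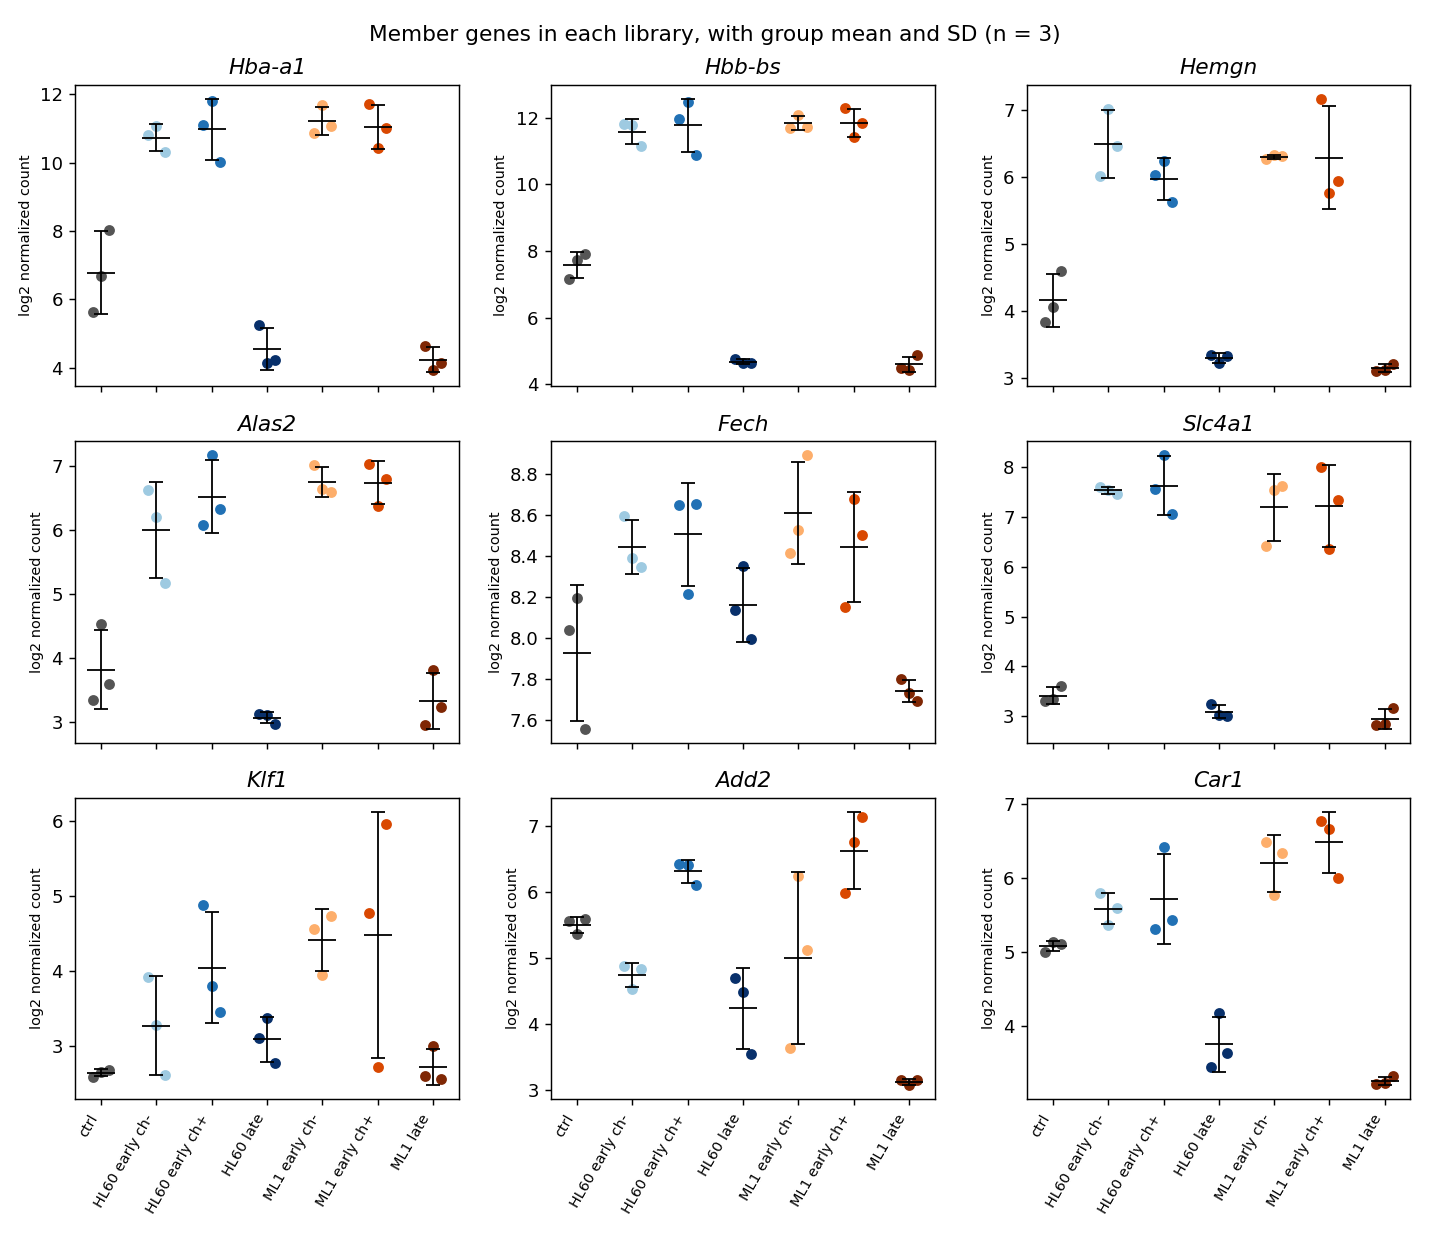
Log2 normalized counts (vertical axes) of 9 members in every library (dots), with the mean and SD of each group of 3, over ctrl, early ch-, early ch+ and late for HL60 and ML1. Hbb-bs stood at 10.90 to 12.47 in the early libraries, 7.15 to 7.90 in ctrl and 4.44 to 4.87 in the late libraries, while Fech stayed between 7.56 and 8.89.

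By limma, with p-values adjusted over all tested genes and calls at an adjusted p below 0.1, the 4 globins were called higher in each early group, where the share of all tested genes called higher was 0.894% in HL60 early ch-, 2.87% in HL60 early ch+, 1.42% in ML1 early ch- and 3.47% in ML1 early ch+. Hbb-bs rose over ctrl by 4.0 ± 0.28, adjusted p = 2.02e-10 in HL60 early ch- (3 of 3 libraries above every ctrl library, as for the next 3 values). The rise was 4.18 ± 0.28, adjusted p = 6.34e-11 in HL60 early ch+. It was 4.25 ± 0.28, adjusted p = 4.3e-11 in ML1 early ch- and 4.26 ± 0.28, adjusted p = 3.94e-11 in ML1 early ch+. The 4 early rises of this chain lay within 1 SE of each other. Hba-a1 rose by 3.95 ± 0.44, 4.19 ± 0.44, 4.43 ± 0.44 and 4.26 ± 0.44 in the same order, with adjusted p between 1.13e-07 and 9.7e-07 and 3 of 3 libraries above ctrl each time. Hba-a2 rose by 3.16, 3.59, 3.61 and 3.61, and Hbb-bt by 4.37, 4.66, 4.62 and 4.78.

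All 4 globins were also called lower than ctrl in late leukemia, where 7.24% of all tested genes were called lower with HL60 and 12.1% with ML1. Hbb-bs differed from ctrl by −2.92 ± 0.28, adjusted p = 1.16e-08 in HL60 late and −3.00 ± 0.28, adjusted p = 1.52e-09 in ML1 late. Hba-a1 differed by −2.23 ± 0.44, adjusted p = 0.000617 in HL60 late and −2.54 ± 0.44, adjusted p = 5.93e-05 in ML1 late. Hba-a2 was at −2.05 ± 0.35, adjusted p = 0.00012 and −2.16 ± 0.35, adjusted p = 2.61e-05, and Hbb-bt at −1.77 ± 0.34, adjusted p = 0.000441 and −2.0 ± 0.34, adjusted p = 4.19e-05, HL60 late first. In each of these 8 comparisons 3 of 3 late libraries lay below every ctrl library. The falls were called under every scaling tried and with each of the 21 libraries left out.

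As a share of the summed signal, the 4 globins were small even where high. They made up 0.00341% ± 0.00108 (SD, n = 3) of it in ctrl. The share was 0.0499% ± 0.0130 in HL60 early ch-, 0.0675% ± 0.0308 in HL60 early ch+, 0.0578% ± 0.0126 in ML1 early ch- and 0.0667% ± 0.0226 in ML1 early ch+. It was 0.000912% ± 0.000186 in HL60 late and 0.000944% ± 0.000104 in ML1 late. Single libraries ran from 0.00255% to 0.00463% in ctrl, from 0.0352% to 0.0982% in the early groups and from 0.000773% to 0.00112% in the late groups, with no overlap between stages. The ch+ and ch- shares overlapped in both lines: the lowest early ch+ share was 0.0366% with HL60, below 2 of 3 early ch- libraries, and 0.0454% with ML1, below 3 of 3, and the highest early ch+ share was above every early ch- library in each line.

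**Figure D2:**
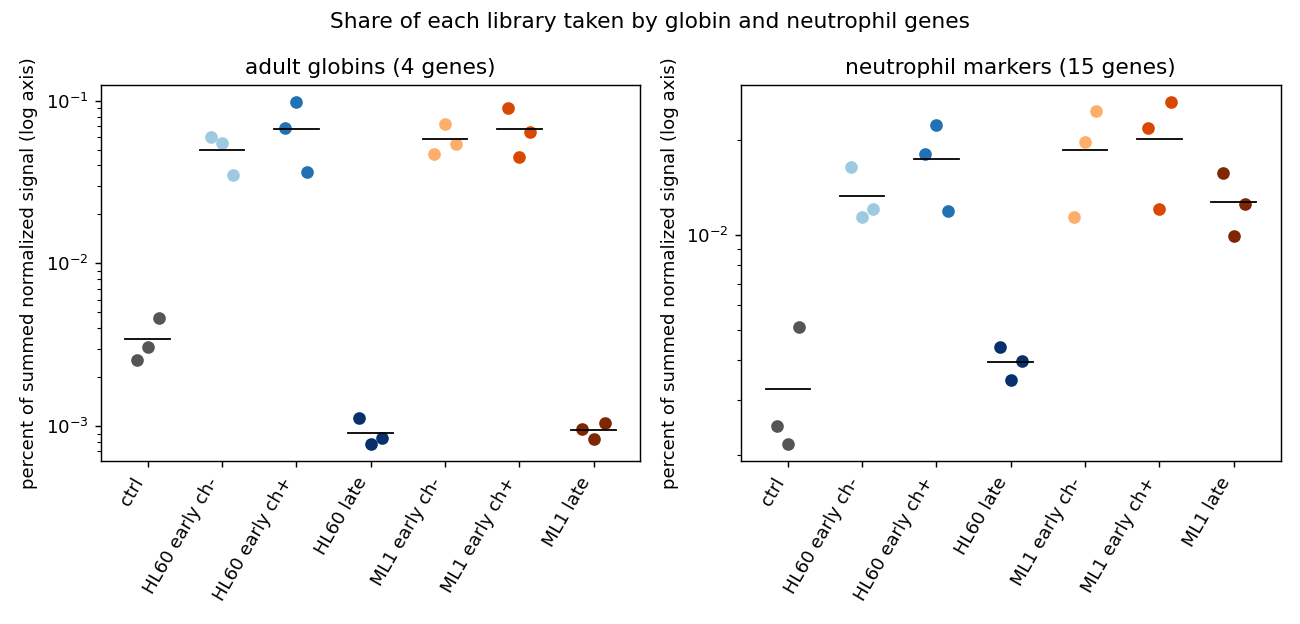
Percent of each library's summed normalized signal (log axis) held by the 4 adult globins and by 15 neutrophil markers in the 7 groups of 3 libraries, each dot 1 library with group means. Globin shares ran from 0.0352% to 0.0982% in the early libraries, against 0.00255% to 0.00463% in ctrl and 0.000773% to 0.00112% in the late libraries.

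Hemgn (ENSMUSG00000028332), a nuclear protein of erythroid precursors, followed the globins in the early groups. It was 3.83, 4.05 and 4.60 in ctrl and 6.01, 7.02 and 6.45 in HL60 early ch-. The other early groups had 6.03, 6.24 and 5.62 in HL60 early ch+, 6.27, 6.33 and 6.31 in ML1 early ch- and 7.17, 5.76 and 5.94 in ML1 early ch+. All 12 early libraries were above every ctrl library. Hemgn rose over ctrl by 2.33 ± 0.40, adjusted p = 0.000852 in HL60 early ch- and by 1.81 ± 0.40, adjusted p = 0.00675 in HL60 early ch+. With ML1 it rose by 2.14 ± 0.40, adjusted p = 0.00254 in early ch- and by 2.13 ± 0.40, adjusted p = 0.000934 in early ch+. The late values, 3.34, 3.21 and 3.33 with HL60 and 3.10, 3.11 and 3.21 with ML1, lay below every ctrl value. Just the ML1 late difference was called (−1.02 ± 0.40, adjusted p = 0.0793), and that call was lost without ctrl 374 or 375 or ML1 late 581, 582 or 583 (adjusted p between 0.116 and 0.261) and when libraries were rescaled to 1 total (−0.20, adjusted p = 0.654).

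Of the 4 heme synthesis members, Alas2 was higher in every early group, and the others, which also act outside the erythroid lineage, were called in no early comparison with ctrl. Alas2 (ENSMUSG00000025270), the erythroid form of the first and rate-limiting enzyme, was 3.34, 4.53 and 3.60 in ctrl. It was 6.63, 6.20 and 5.17 in HL60 early ch-, 6.08, 7.17 and 6.33 in HL60 early ch+, 7.03, 6.65 and 6.60 in ML1 early ch- and 7.04, 6.38 and 6.81 in ML1 early ch+. Every early library was above every ctrl library. The rise over ctrl was 2.18 ± 0.43, adjusted p = 0.00489 in HL60 early ch- and 2.71 ± 0.43, adjusted p = 0.000178 in HL60 early ch+. It was 2.94 ± 0.43, adjusted p = 9.3e-05 in ML1 early ch- and 2.92 ± 0.43, adjusted p = 4.23e-05 in ML1 early ch+. In late leukemia Alas2 was 3.12, 3.11 and 2.96 with HL60 and 2.95, 3.81 and 3.23 with ML1, and it was called against ctrl in neither line although 3 of 3 HL60 late and 2 of 3 ML1 late libraries lay below every ctrl library.

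Cpox, which makes protoporphyrinogen, was 7.39 ± 0.27 (SD, n = 3) in ctrl, 7.21 ± 0.45 in HL60 early ch-, 6.68 ± 0.32 in HL60 early ch+, 7.57 ± 0.71 in ML1 early ch- and 7.16 ± 0.59 in ML1 early ch+. It was 6.73 ± 0.32 in HL60 late and 6.47 ± 0.21 in ML1 late. In ML1 late it fell by 0.92 ± 0.35, adjusted p = 0.072, 3 of 3 libraries below ctrl, a call lost without ctrl 373 (adjusted p = 0.113), ctrl 374 (adjusted p = 0.219), ML1 late 582 (adjusted p = 0.158) or ML1 late 583 (adjusted p = 0.203), on rescaling (−0.10, adjusted p = 0.807) and with no filter. Fech, which puts iron into the ring as the last step, was 8.04, 8.19 and 7.56 in ctrl, and group means lay between 7.74 in ML1 late and 8.61 in ML1 early ch-. Urod, an enzyme of the cytosolic steps, had group means between 7.24 in ctrl and 8.12 in HL60 early ch+ and was called in no comparison. Fech was above every ctrl library in 11 of the 12 early libraries without being called against ctrl in any group.

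Among 6 tested membrane members, Slc4a1 and Sptb were higher in all 4 early groups, Epb42 in 3, and Ermap in 3. Slc4a1 (ENSMUSG00000006574), band 3, the anion exchanger of the red cell, was 3.30, 3.34 and 3.60 in ctrl. It was 7.60, 7.55 and 7.47 in HL60 early ch-, 7.57, 8.25 and 7.07 in HL60 early ch+, 6.43, 7.54 and 7.62 in ML1 early ch- and 8.00, 6.36 and 7.34 in ML1 early ch+. No early library came near the ctrl range. Slc4a1 rose by 4.13 ± 0.42, adjusted p = 2.21e-07 in HL60 early ch- and by 4.22 ± 0.42, adjusted p = 1.01e-07 in HL60 early ch+. It rose by 3.79 ± 0.42, adjusted p = 1.11e-06 in ML1 early ch- and by 3.82 ± 0.42, adjusted p = 5.23e-07 in ML1 early ch+, 3 of 3 libraries above ctrl in each. In late leukemia it was 3.24, 3.02 and 3.01 with HL60 and 2.82, 2.84 and 3.17 with ML1, called in neither against ctrl.

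Sptb (ENSMUSG00000021061), erythroid beta spectrin, was 3.74, 3.85 and 4.04 in ctrl. It was 5.79, 6.73 and 6.60 in HL60 early ch-, 5.61, 6.90 and 6.67 in HL60 early ch+, 5.58, 5.68 and 6.84 in ML1 early ch- and 6.45, 4.95 and 7.22 in ML1 early ch+. All early libraries were above ctrl, with a wide spread in ML1 early ch+. Sptb rose by 2.49 ± 0.50, adjusted p = 0.00581 in HL60 early ch-, 2.52 ± 0.50, adjusted p = 0.00248 in HL60 early ch+ and 2.33 ± 0.50, adjusted p = 0.00404 in ML1 early ch+. The rise in ML1 early ch- (2.15 ± 0.50, adjusted p = 0.0202) was lost without ML1 early ch- 546 (adjusted p = 0.13) and with no filter on low values (adjusted p = 0.102).

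Epb42 (ENSMUSG00000023216), protein 4.2, which ties band 3 to the skeleton, was 2.44, 2.51 and 2.53 in ctrl, near its floor. It was 4.48, 3.48 and 3.69 in HL60 early ch-, 3.76, 4.51 and 4.15 in HL60 early ch+, 4.11, 4.03 and 4.10 in ML1 early ch- and 5.76, 3.46 and 3.35 in ML1 early ch+. All 12 early libraries were above every ctrl library, and ML1 early ch+ 538 stood well above the rest of its group. Epb42 was called in HL60 early ch+ (1.65 ± 0.44, adjusted p = 0.0274), a call lost without HL60 early ch+ 524 (adjusted p = 0.122). It was called in ML1 early ch- (1.59 ± 0.44, adjusted p = 0.0654), a call lost without ctrl 373, 374 or 375 or ML1 early ch- 543, 544 or 546 (adjusted p between 0.133 and 0.159). In ML1 early ch+ it was called too (1.70 ± 0.44, adjusted p = 0.018), and without ML1 early ch+ 538 (adjusted p = 0.183) the difference was 0.91. With no filter on low values, the HL60 early ch+ and ML1 early ch- calls were lost (adjusted p = 0.116 and 0.213), the latter also on rescaling and with no trend.

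Ermap, a membrane protein of red cell precursors that carries the Scianna blood group, was 3.11, 4.24 and 3.77 in ctrl. It was 5.08, 5.79 and 5.36 in HL60 early ch-, 4.53, 5.29 and 5.39 in HL60 early ch+, 4.38, 6.26 and 5.57 in ML1 early ch- and 5.60, 4.39 and 5.93 in ML1 early ch+. All 12 early libraries were above every ctrl library. Ermap rose by 1.70 ± 0.47, adjusted p = 0.0858 in HL60 early ch-, 1.70 ± 0.47, adjusted p = 0.0721 in ML1 early ch- and 1.60 ± 0.47, adjusted p = 0.0465 in ML1 early ch+. The HL60 early ch- call was lost without ctrl 373 or 375, HL60 early ch- 527, 528 or 529 or ML1 late 581, 582 or 583 (adjusted p between 0.103 and 0.268). The ML1 calls were lost without ctrl 373 (adjusted p = 0.229), ctrl 375 (adjusted p = 0.14), ML1 early ch- 544 (adjusted p = 0.292) or ML1 early ch- 546 (adjusted p = 0.165) in early ch- and without ctrl 373 (adjusted p = 0.195), ML1 early ch+ 538 (adjusted p = 0.147) or ML1 early ch+ 541 (adjusted p = 0.197) in early ch+. With no filter on low values all 3 were lost (adjusted p = 0.225, 0.204 and 0.138), as they were with fits on the compared groups alone. Both early ch- calls were lost on rescaling and with no trend, and the HL60 one with quantile normalization.

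Ank1, the erythroid ankyrin, and Add2, beta adducin, were called against ctrl in no early group. Ank1 was 5.76, 6.70 and 4.87 in ctrl and 6.76, 6.0 and 7.47 in ML1 early ch+, with group means that overlapped in spread, and it was not called in the late groups either. Add2 (ENSMUSG00000030000) was 5.56, 5.36 and 5.58 in ctrl, 4.87, 4.53 and 4.83 in HL60 early ch- and 3.63, 6.23 and 5.12 in ML1 early ch-, so all 3 HL60 early ch- libraries lay below ctrl and 1 of 3 ML1 early ch- libraries above it. It was 6.41, 6.41 and 6.11 in HL60 early ch+ and 5.98, 6.76 and 7.14 in ML1 early ch+, all 6 above every ctrl library. It was 4.69, 4.48 and 3.54 in HL60 late and 3.15, 3.07 and 3.14 in ML1 late, all 6 below ctrl. In ML1 late Add2 fell by 2.38 ± 0.47, adjusted p = 0.000359. The fall in HL60 late (−1.26 ± 0.47, adjusted p = 0.093) was lost without ctrl 373, 374 or 375, HL60 early ch- 527, HL60 early ch+ 523, 524 or 525, HL60 late 398 or 399, ML1 early ch- 546 or ML1 late 581, 582 or 583 (adjusted p between 0.1 and 0.378), on rescaling (−0.69, adjusted p = 0.258) and with no filter.

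The remaining 4 membrane members, Rhag, Rhd, Kel and Tspan33, lay below the filter. Rhag, a carrier that holds the Rh proteins in the membrane, was 2.35, 2.41 and 2.43 in ctrl, 3.81, 3.61 and 3.72 in HL60 early ch-, 4.69, 4.57 and 2.45 in HL60 early ch+, 2.48, 3.68 and 4.17 in ML1 early ch- and 4.12, 4.23 and 5.10 in ML1 early ch+. It was 2.38, 2.33 and 2.33 in HL60 late and 2.28, 2.29 and 2.33 in ML1 late. All 12 early libraries were above every ctrl and late library, with HL60 early ch+ 525 and ML1 early ch- 543 only just above. Kel, the Kell blood group protease, had group means of 1.98 in ctrl, 2.64 to 3.03 in the early groups and 1.94 and 1.92 in HL60 late and ML1 late. Rhd, the Rh antigen, was highest in ML1 early ch- (2.49) and between 1.42 and 1.72 in the other groups. Tspan33, a tetraspanin of erythroid progenitors, had means between 2.05 and 2.92 with no order by stage. With no filter, Rhag was called in ML1 early ch+ (2.09 ± 0.49, adjusted p = 0.0438) and Rhd in ML1 early ch- (0.95 ± 0.19, adjusted p = 0.0452), each with 3 of 3 libraries above ctrl.

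**Figure D3:**
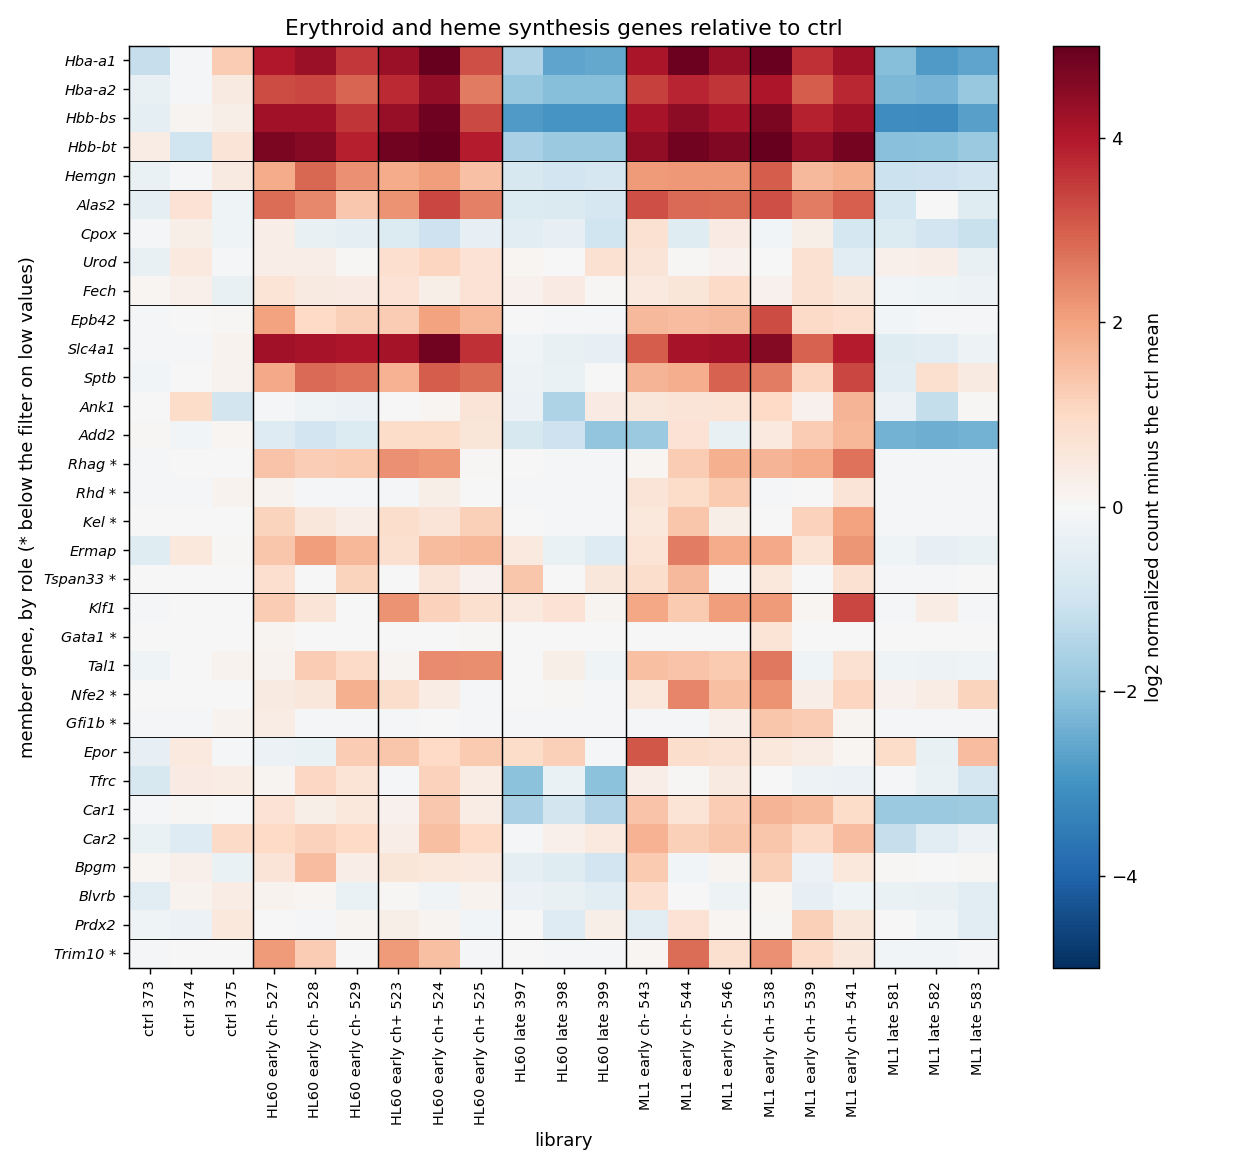
Log2 normalized count minus the ctrl mean for the 32 members found, ordered by role, in each of the 21 libraries (columns, grouped as ctrl, early ch-, early ch+ and late for each line). Members with an asterisk are below the filter. Adult globins, Hemgn, Alas2, Slc4a1 and Sptb stand above ctrl in all 12 early libraries.

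The erythroid transcription factors were low in all groups. Gata1, the master regulator of erythroid genes, was highest in ML1 early ch+ 538, at 0.76, and its group means lay between 0.08 and 0.31. Klf1 (ENSMUSG00000054191), which switches on adult beta globin, was 2.59, 2.66 and 2.68 in ctrl. It was 3.92, 3.29 and 2.61 in HL60 early ch-, 4.89, 3.80 and 3.46 in HL60 early ch+, 4.57, 3.94 and 4.74 in ML1 early ch- and 4.77, 2.72 and 5.97 in ML1 early ch+. Of the early libraries, 11 of 12 lay above every ctrl library. It was 3.11, 3.38 and 2.77 in HL60 late, 3 of 3 above every ctrl library, and 2.59, 3.00 and 2.56 in ML1 late, 1 of 3 above. Klf1 was called in ML1 early ch- (1.77 ± 0.52, adjusted p = 0.0902) and in ML1 early ch+ (1.84 ± 0.52, adjusted p = 0.0363), 3 of 3 libraries above ctrl in each. The first call was lost without ctrl 373, 374 or 375, HL60 late 397 or 399, ML1 early ch- 543, 544 or 546 or ML1 late 581, 582 or 583 (adjusted p between 0.103 and 0.211). The second was lost without ML1 early ch+ 538 (adjusted p = 0.12) or ML1 early ch+ 541 (adjusted p = 0.276), where the differences were 1.70 and 1.1. With no filter both were lost (adjusted p = 0.295 and 0.176), and the first also with quantile normalization, on rescaling, with no trend and with the lines pooled.

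Tal1, a factor that acts with Gata1 and also marks stem and progenitor cells, was 2.56, 2.78 and 2.96 in ctrl, 2.93, 4.03 and 3.71 in HL60 early ch-, 2.89, 5.14 and 5.08 in HL60 early ch+, 4.28, 4.18 and 4.06 in ML1 early ch- and 5.39, 2.56 and 3.53 in ML1 early ch+. In HL60 early ch+, 2 of 3 libraries were above every ctrl library, and the difference was called (1.60 ± 0.53, adjusted p = 0.0952). That call was lost without ctrl 373, 374 or 375, HL60 early ch- 529, HL60 early ch+ 524 or 525, HL60 late 397, 398 or 399, ML1 early ch- 543, 544 or 546 or ML1 late 581, 582 or 583 (adjusted p between 0.101 and 0.33), with no filter (adjusted p = 0.303), with quantile normalization (adjusted p = 0.124), with no trend (adjusted p = 0.174), with the fit on ctrl and HL60 early ch+ alone (adjusted p = 0.127) and with the lines pooled (adjusted p = 0.113). The other factors were below the filter. Nfe2, a globin regulator, had means of 2.46 in ctrl, 3.39 in HL60 early ch-, 2.86 in HL60 early ch+, 3.95 in ML1 early ch-, 3.68 in ML1 early ch+, 2.46 in HL60 late and 3.03 in ML1 late. Gfi1b, a repressor needed for erythroid maturation, was 3.12, 2.99 and 1.87 in ML1 early ch+ and had means between 1.61 and 1.80 in the other groups. With no filter Gfi1b was called in ML1 early ch+ (0.94 ± 0.24, adjusted p = 0.0748), where 2 of 3 libraries were above every ctrl library.

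Neither receptor was called in an early group against ctrl. Epor, the erythropoietin receptor, had means of 3.61 in ctrl, 3.84 in HL60 early ch-, 4.84 in HL60 early ch+, 5.19 in ML1 early ch- and 3.95 in ML1 early ch+, with 4.29 in HL60 late and 4.30 in ML1 late. The ML1 early ch- mean held 1 high library, 6.71 in ML1 early ch- 543. Tfrc, the transferrin receptor, which brings iron into many dividing cells as well as erythroid ones, was 4.88, 6.11 and 6.07 in ctrl and 3.64, 5.35 and 3.63 in HL60 late. In HL60 late it fell by 1.48 ± 0.46, adjusted p = 0.0333, with 2 of 3 libraries below every ctrl library. The call was lost without ctrl 374 (adjusted p = 0.139), ctrl 375 (adjusted p = 0.133), HL60 late 397 (adjusted p = 0.176) or HL60 late 399 (adjusted p = 0.186), on rescaling (−0.91, adjusted p = 0.11) and with the lines pooled (−0.94, adjusted p = 0.148).

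Of the carbonic anhydrases, Car1 was called higher in ML1 early ch+ and Car2 in both ML1 early groups, and neither was called between the lines. Car1 (ENSMUSG00000027556), abundant in red cells, was 5.00, 5.13 and 5.12 in ctrl. It was 5.80, 5.37 and 5.60 in HL60 early ch-, 5.31, 6.42 and 5.44 in HL60 early ch+, 6.50, 5.77 and 6.35 in ML1 early ch- and 6.78, 6.67 and 6.01 in ML1 early ch+. Every early library was above every ctrl library, and every late library, 3.45, 4.17 and 3.63 with HL60 and 3.21, 3.22 and 3.32 with ML1, was below. The rise was called in ML1 early ch+ (1.40 ± 0.38, adjusted p = 0.0302), and lost without ML1 early ch+ 538 (adjusted p = 0.114) or ML1 early ch+ 539 (adjusted p = 0.11), with the fit on ctrl and ML1 early ch+ alone (adjusted p = 0.139) and with the lines pooled (1.02, adjusted p = 0.114). The fall in ML1 late was −1.83 ± 0.38, adjusted p = 0.000672. The fall in HL60 late was −1.33 ± 0.38, adjusted p = 0.0214, lost without HL60 late 397 (adjusted p = 0.102) and on rescaling (−0.76, adjusted p = 0.123).

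Car2, a carbonic anhydrase also found in osteoclasts and other cells, was 6.72, 6.42 and 8.00 in ctrl, 8.78, 8.22 and 8.45 in ML1 early ch- and 8.42, 8.00 and 8.58 in ML1 early ch+. It rose with ML1 by 1.44 ± 0.33, adjusted p = 0.0207 in early ch- and 1.29 ± 0.33, adjusted p = 0.0203 in early ch+, with 3 of 3 libraries above every ctrl library in each. The early ch- call was lost without ctrl 374 (adjusted p = 0.169) or ML1 early ch- 543 (adjusted p = 0.103), where ctrl 374 left out gave 1.12. The early ch+ call was lost without ctrl 374 (adjusted p = 0.144). With no filter both were lost (adjusted p = 0.126 and 0.101). Bpgm, which makes the phosphate that loosens oxygen from hemoglobin, had means of 6.68 in ctrl and 7.51 in HL60 early ch-. Blvrb, a flavin reductase of red cells, had group means between 6.34 and 6.96 and was called nowhere, and Prdx2, a peroxidase abundant in red cells, had means of 7.83 in ctrl and 8.44 in ML1 early ch+. Trim10, a ubiquitin ligase of terminal erythroid cells, was below the filter, with means of 2.23 in ctrl, 3.36, 3.41, 3.45 and 3.50 in HL60 early ch-, HL60 early ch+, ML1 early ch- and ML1 early ch+, and 2.17 and 2.12 in HL60 late and ML1 late. Trim10 was above every ctrl and late library in 10 of the 12 early libraries.

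Counted over the tested members, 9 of 24 were called higher than ctrl in HL60 early ch- (0.894% of all tested genes) and 0 lower (0.678%). The median log2 difference of the tested members was 0.81, against 0.01 over all tested genes. The number of all genes called there, 204, was 127 without ctrl 374 and 106 without HL60 early ch- 529. In HL60 early ch+, 10 were higher (2.87%) and 0 lower (2.46%), with a median of 1.29 against 0.03. In ML1 early ch-, 12 were higher (1.42%) and 0 lower (0.925%), with a median of 1.51 against 0.01. The 304 genes called there were 180 without ctrl 374 and 181 without ML1 early ch- 544. In ML1 early ch+, 13 were higher (3.47%) and 0 lower (3.22%), with a median of 1.34 against 0.01. Called in all 4 early groups were the 4 globins, Hemgn, Alas2, Slc4a1 and Sptb. These 4 comparisons share their ctrl libraries. Epb42, Slc4a1, Klf1 and Tal1 enter these and the later member counts and medians, although they passed the filter only through the early libraries. With no filter, over the 32 members found, the median was 0.93 in HL60 early ch+ and 1.17 in ML1 early ch-.

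Scaling each library to the same total moved the median of all tested genes from 0.03 to 0.12 in HL60 early ch+ and from 0.01 to −0.11 in ML1 early ch-. The share of higher calls went from 53.9% to 70.3% in the first and from 60.5% to 32.3% in the second. The 8 members called in all 4 early groups stayed called higher in all 4 on that scale.

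In late leukemia no tested member was called higher than ctrl, while the globins and a few others were lower. With HL60, 0 of 24 were higher (6.46% of all tested genes) and 7 lower (7.24%): the 4 globins, Add2, Car1 and Tfrc. With ML1, 0 were higher (9.89%) and 8 lower (12.1%): the 4 globins, Hemgn, Cpox, Add2 and Car1. The member median was −0.44 against 0.01 over all tested genes in HL60 late and −0.45 against 0.03 in ML1 late. Without ctrl 374 the ML1 late median was −0.28. Scaling to the same total moved the median of all tested genes to 0.58 in HL60 late and 0.84 in ML1 late, and the share of higher calls from 47.1% to 93.1% and from 45% to 93.1%. On that scale the member medians were 0.13 and 0.37, the globins stayed called lower in both lines, and Add2 and Car1 stayed called lower in ML1 late.

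Set against the labelled early cells rather than ctrl, late leukemia had lower values of the globins, Hemgn, Alas2 and Slc4a1 in both lines. With HL60, 15 of 24 were lower than in early ch+ (5.95% of all tested genes) and 0 higher (4.25%), with a median of −1.66 against −0.01 over all tested genes. With ML1, 17 were lower (9.83%) and 0 higher (7.07%), with a median of −1.85 against 0.03. Hbb-bs differed by −7.10 ± 0.28, adjusted p = 4.71e-17 with HL60 and −7.26 ± 0.28, adjusted p = 4.25e-18 with ML1. Slc4a1 differed by −4.54 ± 0.42, adjusted p = 7.54e-09 with HL60 and −4.29 ± 0.42, adjusted p = 4.1e-09 with ML1. Alas2 differed by −3.46 ± 0.43, adjusted p = 1.28e-06 with HL60 and −3.42 ± 0.43, adjusted p = 4.96e-07 with ML1. In all 6 of these, 3 of 3 late libraries were below every early ch+ library. Scaling to the same total moved the median of all tested genes to 0.47 with HL60 and 0.79 with ML1, and the share of higher calls from 41.6% to 90.8% and from 41.8% to 93.4%.

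Some members fell from early ch+ to late in 1 line only by the call, and whether the lines differ was not tested for late against early ch+. Tfrc (−1.96 ± 0.46, adjusted p = 0.0051) and Bpgm (−1.23 ± 0.38, adjusted p = 0.0401) fell with HL60, the latter call lost without HL60 early ch+ 523 (adjusted p = 0.105), HL60 early ch+ 524 (adjusted p = 0.101) or HL60 late 399 (adjusted p = 0.159), on rescaling (−0.76, adjusted p = 0.145) and with no filter. With ML1, Car2 fell by 1.93 ± 0.33, adjusted p = 7.65e-05. Fech fell by 0.70 ± 0.22, adjusted p = 0.0306 with ML1, lost without ML1 early ch+ 539 (adjusted p = 0.142), and on rescaling its difference turned to 0.058 (adjusted p = 0.838). Ank1 (−1.44 ± 0.48, adjusted p = 0.0432) was lost without ML1 early ch+ 541 (adjusted p = 0.232) or ML1 late 582 (adjusted p = 0.242), on rescaling (−0.68, adjusted p = 0.236) and with no filter. Prdx2 (−0.84 ± 0.31, adjusted p = 0.0762) was lost without ML1 early ch+ 539 (adjusted p = 0.365), ML1 early ch+ 541 (adjusted p = 0.138), ML1 late 582 (adjusted p = 0.151) or ML1 late 583 (adjusted p = 0.273), on rescaling (−0.08, adjusted p = 0.825), with no filter, with quantile normalization, with no trend and with the lines pooled, and without ML1 early ch+ 539 it was −0.55. In each of these the 3 late libraries were below every early ch+ library.

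Klf1 was lower in ML1 late than in ML1 early ch+ (−1.77 ± 0.52, adjusted p = 0.0196), with 2 of 3 late libraries below every early one. It was lost without ML1 early ch+ 541 (adjusted p = 0.231), where it was −1.03, on rescaling (adjusted p = 0.1) and with no filter. Tal1 was lower in HL60 late than in HL60 early ch+ (−1.60 ± 0.53, adjusted p = 0.0624), with 2 of 3 below. Its call was lost without HL60 early ch+ 524 (adjusted p = 0.287), HL60 early ch+ 525 (adjusted p = 0.259), HL60 late 397 (adjusted p = 0.15) or HL60 late 399 (adjusted p = 0.185), on rescaling (−1.13, adjusted p = 0.122), with no filter and with no trend. Epb42 differed by −1.71 ± 0.44, adjusted p = 0.0107 with HL60 and −1.79 ± 0.44, adjusted p = 0.00394 with ML1, and without ML1 early ch+ 538 the latter was −1.01 and still called. For Epb42 and Ermap, 3 of 3 late libraries were below every early ch+ library in both lines. Ermap fell by 1.92 ± 0.47, adjusted p = 0.0046 with ML1. With HL60 its fall (−1.53 ± 0.47, adjusted p = 0.043) was lost without HL60 early ch+ 524 (adjusted p = 0.144), HL60 early ch+ 525 (adjusted p = 0.146), HL60 late 398 (adjusted p = 0.144) or HL60 late 399 (adjusted p = 0.196), on rescaling (−1.06, adjusted p = 0.109) and with no filter.

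The study describes early ch+ and early ch- cells as parts of the same marrow, but which libraries share a mouse is not given, so these groups were compared unpaired. Of the 24 tested members, 1 was called between early ch+ and early ch- with HL60 (3.92% of all tested genes called either way) and 1 with ML1 (4.25%), Add2 in both. The member median was 0.16 with HL60, against −0.01 over all tested genes, and −0.00 with ML1, against −0.02. The number of all genes called with HL60, 509, was 295 without HL60 early ch- 528. Add2, which binds spectrin to actin and is also made outside the red cell lineage, was 4.87, 4.53 and 4.83 in HL60 early ch- and 6.41, 6.41 and 6.11 in HL60 early ch+. With ML1 it was 3.63, 6.23 and 5.12 in early ch- and 5.98, 6.76 and 7.14 in early ch+. The HL60 groups did not overlap, and with ML1 2 of 3 labelled libraries were above every unlabelled one. The difference was 1.57 ± 0.47, adjusted p = 0.0754 with HL60, lost without HL60 early ch- 527, 528 or 529 or HL60 early ch+ 523, 524 or 525 (adjusted p between 0.124 and 0.244). It was 1.63 ± 0.47, adjusted p = 0.057 with ML1, lost without ML1 early ch- 543 (adjusted p = 0.41), ML1 early ch+ 539 (adjusted p = 0.157) or ML1 early ch+ 541 (adjusted p = 0.218), where leaving out ML1 early ch- 543 gave 0.95. With no filter both were lost, and the ML1 one also with the fit on the compared groups alone. Without ML1 early ch- 543, ML1 early ch+ 539 or ML1 early ch+ 541 no member was called in that line. With HL60 none was called without any 1 of its 6 libraries.

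For the globins, the difference between early ch+ and early ch- had a median of 0.27 with HL60 and 0.01 with ML1, with 0 of 4 called in either by limma and 0 at an unadjusted p below 0.05. Scaling to the same total moved the all-gene median of these comparisons to 0.11 with HL60 and 0.16 with ML1 and the share of higher calls from 57.8% to 74.8% and from 55.1% to 78.6%. The difference between the lines in this contrast, fitted after the data were seen, was called for 0 of 24 members and for 1 gene of all tested. Its largest size was for Epor (2.25, adjusted p = 0.66), then Tal1 (1.16, adjusted p = 0.841).

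HL60 and ML1 were compared directly at each stage. By limma, 0 of 24 members were called between the lines in early ch- (0.0539% of all tested genes), 0 in early ch+ (0.0154%) and 0 in late (4.09%). At an unadjusted p below 0.05, 2 members passed in early ch- (6.82% of all tested genes), 1 in early ch+ (7.61%) and 3 in late (10.9%). The numbers of all genes called in the first 2, 7 and 2, ranged from 0 to 10 and from 0 to 6 with each library left out. Without HL60 late 398, 1 member was called in late. Scaling to the same total moved the median of all tested genes from 0.00 to 0.10 in early ch- and from 0.00 to −0.24 in late, and the share of higher calls from 71.4% to 85.7% and from 77.2% to 37%.

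Genes of the same pathways outside the member list moved less evenly. Of 9 other heme synthesis genes, 0 were called against ctrl in the 4 early groups by limma, with 3, 2, 2 and 3 at an unadjusted p below 0.05 in HL60 early ch-, HL60 early ch+, ML1 early ch- and ML1 early ch+. Alad was called lower in both late groups. Of 13 genes of iron handling and heme breakdown, 2 were higher in HL60 early ch+ (Hmox1 and Slc25a37), 2 in ML1 early ch+ (Fth1 and Slc25a37), 0 in HL60 early ch- and 0 in ML1 early ch- by limma (2 and 1 at an unadjusted p below 0.05), 4 in HL60 late (Fth1, Ftl1, Slc40a1 and Tfr2) and 4 in ML1 late (Fth1, Ftl1, Hmox1 and Tfr2). Slc25a37, the mitochondrial iron importer of erythroid cells, was 7.61 ± 0.43 in ctrl and 9.01 ± 0.29 in ML1 early ch+, a rise of 1.40 ± 0.28, adjusted p = 0.00162 with 3 of 3 libraries above ctrl. Its HL60 early ch+ call (0.99 ± 0.28, adjusted p = 0.0388) was lost without ctrl 373 or HL60 early ch+ 523 or 524 (adjusted p up to 0.192). The Hmox1 call in HL60 early ch+ (1.07 ± 0.33, adjusted p = 0.0644) was lost without ctrl 374 or HL60 early ch+ 523 or 524 (adjusted p up to 0.354). Both were also lost with no filter, and the Hmox1 call with no trend (adjusted p = 0.137), with the fit on the compared groups alone (adjusted p = 0.147) and with the lines pooled (0.71, adjusted p = 0.286). Single genes named in these paragraphs that are outside the naming rule were chosen after their values were seen.

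Among other red cell membrane genes, Bcam was called lower in both early ch+ groups and Add1 in HL60 early ch-. Bcam, the Lutheran blood group protein, also made outside the red cell lineage, was 7.83, 8.80 and 7.26 in ctrl, 5.27, 4.67 and 5.90 in HL60 early ch+ and 6.62, 6.29 and 5.57 in ML1 early ch+. It differed from ctrl by −2.69 ± 0.42, adjusted p = 0.000157 in HL60 early ch+ and −1.81 ± 0.42, adjusted p = 0.00828 in ML1 early ch+, with 3 of 3 libraries below every ctrl library in each. The fall in ML1 late (−1.22 ± 0.42, adjusted p = 0.0417, 2 of 3 libraries below every ctrl library) was lost without ctrl 374 or ML1 late 582 or 583 (adjusted p up to 0.263), on rescaling, with no filter and with the lines pooled. In HL60 late Cd59a and Tmod1 were called lower.

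Of 8 tested genes among 12 other erythroid transcription factors, Klf3 was higher in HL60 early ch+, ML1 early ch- and ML1 early ch+, E2f2 was higher in ML1 early ch-, and Sox6 was lower in HL60 early ch+ and ML1 early ch-. The Klf3 calls were lost without ML1 early ch- 544 (adjusted p = 0.174) in ML1 early ch- and without ctrl 373 or 374, HL60 early ch- 527, 528 or 529, HL60 early ch+ 525, HL60 late 397 or 398, ML1 early ch+ 538 or 541 or ML1 late 581, 582 or 583 (adjusted p up to 0.285) in ML1 early ch+. The E2f2 call was lost without ctrl 374 or ML1 early ch- 544 (adjusted p up to 0.137). The Sox6 calls were lost without ctrl 373, 374 or 375 or HL60 early ch+ 523, 524 or 525 (adjusted p up to 0.301) in HL60 early ch+ and without ctrl 373, 374 or 375 or ML1 early ch- 543 (adjusted p up to 0.345) in ML1 early ch-. With no filter the Klf3 call in ML1 early ch+, the E2f2 call and both Sox6 calls were lost. The Sox6 call in HL60 early ch+ was also lost on rescaling (adjusted p = 0.131), with quantile normalization (adjusted p = 0.104) and with no trend (adjusted p = 0.163), and that in ML1 early ch- with no trend (adjusted p = 0.158) and with the lines pooled (adjusted p = 0.143). Both ML1 Klf3 calls were lost with no trend and with fits on the compared groups alone, the early ch- call also on rescaling and with the lines pooled and the early ch+ call with quantile normalization. None was called in HL60 early ch- by limma, with 3 at an unadjusted p below 0.05. In the late groups 1 was higher in each (Klf3), and 2 were lower with HL60 and 3 with ML1.

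Of 10 tested genes among 12 of terminal maturation, Fam46c was called higher in all 4 early groups, and Isg20 in both early ch+ groups and both late groups. Fam46c, a poly(A) polymerase also active in plasma cells, was 7.09, 7.05 and 7.02 in ctrl and 8.44, 8.14 and 8.63 in ML1 early ch+, a rise of 1.35 ± 0.33, adjusted p = 0.0124 with 3 of 3 libraries above, and 5.78, 4.84 and 4.16 in ML1 late, with a difference from ctrl of −2.13 ± 0.33, adjusted p = 1.31e-05 and 3 of 3 libraries below. Its other early calls were lost without HL60 early ch- 529 (adjusted p = 0.119) for HL60 early ch-, HL60 early ch+ 523 (adjusted p = 0.102) for HL60 early ch+ and ctrl 373, 374 or 375 or ML1 early ch- 544 or 546 (adjusted p up to 0.31) for ML1 early ch-. The Isg20 calls were lost without ctrl 374 or HL60 early ch+ 524 or 525 (adjusted p up to 0.25) for HL60 early ch+ and without ctrl 374 or ML1 early ch+ 538 (adjusted p up to 0.176) for ML1 early ch+. Its late calls (1.42 ± 0.53, adjusted p = 0.0926 with HL60 and 1.40 ± 0.53, adjusted p = 0.0686 with ML1, 3 of 3 libraries above ctrl in each) were lost without ctrl 374, HL60 early ch+ 524 or 525, HL60 late 397, 398 or 399, ML1 early ch- 544, ML1 early ch+ 539 or ML1 late 581, 582 or 583 (adjusted p up to 0.401) for HL60 and without ctrl 374 or ML1 late 581, 582 or 583 (adjusted p up to 0.343) for ML1. All 4 Isg20 calls were lost with no filter, all but the ML1 early ch+ call with no trend, and the HL60 late call with quantile normalization. Eif2ak1 was lower in HL60 early ch-, lost without HL60 early ch- 529 (adjusted p = 0.109), in HL60 late, lost without ctrl 373 or HL60 late 398 or 399 (adjusted p up to 0.179), and in ML1 late, lost without ctrl 373 or ML1 late 582 (adjusted p up to 0.335). On rescaling the HL60 late difference was −0.13 (adjusted p = 0.678) and the ML1 late difference changed sign, to 0.17 (adjusted p = 0.545). With the lines pooled, the HL60 early ch- calls of Fam46c and Eif2ak1 were lost, and with no filter the Fam46c calls in HL60 early ch+ and ML1 early ch-. The Fam46c call in ML1 early ch- was also lost with the lines pooled (adjusted p = 0.133), on rescaling (adjusted p = 0.15), with no trend (adjusted p = 0.158) and with the fit on the compared groups alone (adjusted p = 0.163). The embryonic globin Hba-x stayed between −1.98 and −1.72 in all libraries, and Hbb-bh1, Hbb-y, Hbb-bh2 and Hbb-bh0 are not analysed here.

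Neutrophil markers were higher in the early groups, as the globins were, but not lower than ctrl as a whole in the late groups. Of 14 tested neutrophil markers among 15, 8 were higher than ctrl in HL60 early ch-, 9 in HL60 early ch+, 12 in ML1 early ch- and 11 in ML1 early ch+, and 0 lower. Their medians were 2.45, 2.61, 2.96 and 3.02 in that order. Summed over the 15 markers, the normalized signal was 295, 277 and 727 in the ctrl libraries. It was 2012, 1552 and 1634 in HL60 early ch-, 2235, 2819 and 1328 in HL60 early ch+, 1681, 2715 and 3414 in ML1 early ch- and 2705, 1520 and 3253 in ML1 early ch+. It was 384, 311 and 333 in HL60 late, and 1168, 722 and 918 in ML1 late. By these sums the early libraries were above all others, HL60 late was within the ctrl range and ML1 late above ctrl 373 and ctrl 374. As a share of the summed signal, ML1 late held 0.00993% to 0.0157%, above every ctrl library (0.00216% to 0.00511%) and overlapping the early groups (0.0114% and up), while its globin share was below ctrl. HL60 late held 0.00345% to 0.00441%. The mean log2 value of the 15 markers was 3.66 in ctrl, 5.69, 6.0, 6.25 and 6.14 in HL60 early ch-, HL60 early ch+, ML1 early ch- and ML1 early ch+, 3.44 in HL60 late and 3.58 in ML1 late, so by that measure ML1 late was near ctrl. The markers did not move alike in ML1 late, where Cybb and Mmp9 were called higher and Mmp8, Mpo and Ngp lower. The ML1 late share therefore does not stand for all of them. The part of neutrophils in the red cell results was not tested.

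S100a9, an abundant calcium-binding protein of neutrophils and the marker with the most signal, was 4.19, 3.72 and 4.50 in ctrl, 8.04 to 9.70 in the 12 early libraries and 3.11 to 4.34 in the 6 late ones. It rose by 4.48 ± 0.42, adjusted p = 4.66e-08 in HL60 early ch-, 4.59 ± 0.42, adjusted p = 2.08e-08 in HL60 early ch+, 4.88 ± 0.42, adjusted p = 6.24e-09 in ML1 early ch- and 5.00 ± 0.42, adjusted p = 4.59e-09 in ML1 early ch+, with 3 of 3 libraries above ctrl in each. Against ctrl, 0 of 14 markers were called in HL60 late by limma (3 at an unadjusted p below 0.05), while in ML1 late Cybb and Mmp9 were higher and Mmp8, Mpo and Ngp lower. The Ngp call was lost without ctrl 375 or ML1 late 581 or 582 (adjusted p up to 0.583), with no filter, on rescaling (−1.07, adjusted p = 0.144), with no trend, with robust empirical Bayes and with the fit on ctrl and ML1 late alone. From early ch+ to late, 11 were lower in each line. Fcnb never rose above 2.

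Ptprc, which encodes CD45, the antigen used for depletion, was 2.49, 2.58 and 2.61 in ctrl. It was 2.67, 2.84 and 4.34 in HL60 early ch-, 5.58, 5.24 and 3.81 in HL60 early ch+, 5.92, 4.02 and 5.44 in ML1 early ch- and 4.53, 5.34 and 4.24 in ML1 early ch+. In the late groups it was 2.54, 2.44 and 2.44 with HL60 and 2.36, 2.37 and 2.44 with ML1, no higher than in ctrl. Ptprc rose by 2.32 ± 0.48, adjusted p = 0.00371 in HL60 early ch+, 2.57 ± 0.48, adjusted p = 0.00259 in ML1 early ch- and 2.15 ± 0.48, adjusted p = 0.00545 in ML1 early ch+, 3 of 3 libraries above ctrl in each, and was not called in HL60 early ch-. It was higher in HL60 early ch+ than in HL60 early ch- (1.59 ± 0.48, adjusted p = 0.0753, 2 of 3 libraries above), a call lost without HL60 early ch- 527 or 528 or HL60 early ch+ 523 or 524 (adjusted p up to 0.327), with no filter, with no trend, with the fit on the compared groups alone and with the lines pooled. Pooling the lines also ended the Ptprc call in ML1 early ch- against ctrl (1.65, adjusted p = 0.12). In HL60 early ch- 527 and 528, Ptprc was 2.67 and 2.84, above every ctrl library. Globins and the summed neutrophil markers were both high in these libraries. The source of either signal was not tested. A gate without CD45+ cells would remove neutrophils, and one without Ter119+ cells would remove red cell precursors that carry that antigen.

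Markers of other blood lineages mostly fell below the filter. Of 12 platelet and megakaryocyte markers 2 passed the filter, and 0 were called against ctrl in any group by limma, with 1 at an unadjusted p below 0.05 in ML1 early ch-. Gp9, Gp1ba, Gp5, Gp6, Treml1, Clec1b and Tubb1 never rose above 2, a level chosen after the values were seen. Of 10 macrophage markers found, 2 passed, Mrc1 was lower in ML1 late, and Adgre1, C1qa, Cd5l and Spic never rose above 2. Ighm, the 1 tested lymphocyte marker of 7, was lower in ML1 early ch+ and ML1 late, and Cd3e, Cd8a, Cd79a and Cd79b never rose above 2. None of 5 mast cell and basophil markers found passed, and Cpa3, Ms4a2, Mcpt8 and Prss34 never rose above 2. Hdc, the fifth of these, was 2.67, 2.61 and 2.62 in ctrl, 5.18, 4.0 and 3.27 in HL60 early ch-, 3.01, 3.10 and 4.35 in HL60 early ch+, 3.76, 3.52 and 4.08 in ML1 early ch-, 3.98, 4.49 and 2.60 in ML1 early ch+, 2.59, 3.02 and 2.55 in HL60 late and 2.59, 2.53 and 2.55 in ML1 late, so 11 of 12 early libraries were above every ctrl library. Fcer1a and Marco are not analysed here. Of 2 tested progenitor markers among 6, Kit was higher in HL60 late, and Kit and Cd34 were lower in ML1 late. Of 8 tested proliferation genes among 10, Mki67 was higher in both early ch+ groups, and Mki67, Top2a and Ccna2 were lower in both late groups. Several of these calls rest on single libraries. Mrc1 was lost without ctrl 375 or ML1 late 581 (adjusted p up to 0.169), and Ighm in ML1 early ch+ without ctrl 374 or ML1 early ch+ 539 (adjusted p up to 0.29). Kit was lost without ctrl 375 or HL60 late 399 (adjusted p up to 0.195) in HL60 late and without ctrl 373 or 374 or ML1 late 581 or 583 (adjusted p up to 0.268) in ML1 late, and Cd34 without ctrl 373 or 375 or ML1 late 582 or 583 (adjusted p up to 0.284). Mki67 was lost without ctrl 374 or 375 or HL60 early ch+ 524 or 525 (adjusted p up to 0.23) in HL60 early ch+, ctrl 373, 374 or 375 or ML1 early ch+ 538 or 541 (adjusted p up to 0.183) in ML1 early ch+ and HL60 late 398 (adjusted p = 0.193) in HL60 late. On rescaling, the Mki67 falls in HL60 late (−0.50, adjusted p = 0.205) and ML1 late (−0.31, adjusted p = 0.375) and the ML1 late falls of Kit (adjusted p = 0.466), Cd34 (adjusted p = 0.76) and Mrc1 (adjusted p = 0.412) were lost. The early Mki67 calls were lost with no filter and with no trend, and the HL60 late one with no filter. The Ighm call in ML1 early ch+ was lost with no filter, with the fit on the compared groups alone and with the lines pooled. Both late Kit calls and the Cd34 call were lost with the lines pooled, and the Cd34 call with the fit on the compared groups alone.

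Markers of the sorted cell type were present in all groups. Nes, whose reporter defined the sort, had group means of 7.39 in ctrl, 7.28 in HL60 early ch-, 7.53 in HL60 early ch+, 6.92 in HL60 late, 7.36 in ML1 early ch-, 7.06 in ML1 early ch+ and 7.68 in ML1 late, and was called in no comparison. The 12 mesenchymal markers held 10.6% of the summed signal in ctrl, 8.70% in HL60 early ch-, 8.16% in HL60 early ch+, 9.36% in ML1 early ch- and 8.33% in ML1 early ch+. They held 6.26% in HL60 late and 2.83% in ML1 late. Most of this signal is Col1a1, which was 20.10, 20.27 and 20.58 in ctrl and 16.62, 15.76 and 16.06 in ML1 late. The mean log2 value of the 12 markers was 12.01 in ctrl, 12.59 in HL60 late and 12.43 in ML1 late. Against ctrl, 4 of them were higher and 1 lower in HL60 early ch+, 4 higher in ML1 early ch-, 6 higher and 1 lower in ML1 early ch+, 7 higher and 1 lower in HL60 late, and 7 higher and 2 lower in ML1 late. In HL60 early ch- 0 were called by limma (1 at an unadjusted p below 0.05). In ML1 early ch-, the calls of Adipoq, Ebf3 and Kitl were lost with no filter, on rescaling, with no trend and with the lines pooled, and without ctrl 374 or 375 or ML1 early ch- 544 or 546 (adjusted p up to 0.261) for Adipoq, ctrl 374 or 375 or ML1 early ch- 544 or 546 (adjusted p up to 0.279) for Ebf3 and ctrl 374 or 375 or ML1 early ch- 543, 544 or 546 (adjusted p up to 0.22) for Kitl. Those of Adipoq and Ebf3 were lost with robust empirical Bayes too. In HL60 early ch+, those of Ebf3, Kitl and Cxcl12 were lost with no filter and with no trend, Ebf3 also with robust empirical Bayes and without ctrl 374 or 375 or HL60 early ch+ 523 or 525 (adjusted p up to 0.254) and Kitl without ctrl 375 or HL60 early ch+ 525 (adjusted p up to 0.105). Of 8 tested endothelial markers among 9, 0 were called in the early groups (0 at an unadjusted p below 0.05), Eng was higher in HL60 late, and 4 were lower in ML1 late. Pecam1, which encodes CD31, had means between 4.57 in ML1 late and 5.96 in HL60 early ch+. Its fall in ML1 late (−1.02 ± 0.37, adjusted p = 0.0541) was lost without ctrl 375 or ML1 late 581, 582 or 583 (adjusted p up to 0.203), on rescaling and with the lines pooled. The ML1 late falls of Cdh5 (−0.25, adjusted p = 0.549) and Kdr (−0.33, adjusted p = 0.489) were also lost on rescaling. With the lines pooled, Cdh5 and Kdr were not called either (adjusted p = 0.404 and 0.301). All 32 members found held 0.0150% of the sum in ctrl, 0.0674% to 0.0879% in the early groups, 0.0162% in HL60 late and 0.0168% in ML1 late.

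Promoters of the members were searched for 2 short motifs, whether or not the member was called. RefSeq promoters (build GRCm38.p6), the 250 bases before each start in a table of 32851, were matched for 26 of the 32 members found, with 29 promoters in all. Nfe2, Fech, Slc4a1, Ank1, Car1 and Car2 had no entry. A GATA-type motif (A or T, then GATA, then A or G, on either strand) stood in 18 of 29 member promoters (62.1%) and in 8718 of 32851 promoters in the table (26.5%). A KLF-type motif (CCNCNCCC, on either strand, N being any base) stood in 16 of 29 (55.2%) against 15089 of 32851 (45.9%), and both in 6 of 29 (20.7%) against 8.19%. Bpgm, Gata1, Hbb-bt, Prdx2, Sptb, Tfrc, Tspan33 and Urod had no GATA-type match in their windows. A match describes letters only and is no evidence that a factor binds.

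Shown are 4 of these promoters, trimmed to end before the first annotated exon, to let the GATA-type match be seen in an alpha globin, a beta globin, the heme enzyme Alas2 and Klf1. They were picked after the matches were known, and each holds 1, in capitals. Each is upstream of its gene in no exon, 5′ to 3′ on the strand of the gene. Hba-a1 is at chr11:32283422-32283510 on the plus strand, with its match at bases 68 to 73 and the gene at chr11:32283511-32284465. Hbb-bs is at chr7:103828097-103828178 on the minus strand, with its match at bases 41 to 46 and the gene at chr7:103826534-103828096. Alas2 is at chrX:150547167-150547374 on the plus strand, with its match on the opposite strand at bases 165 to 170, and the gene at chrX:150547375-150570638, and it overlaps the gene Apex2 but none of its exons. Klf1 is at chr8:84901732-84901927 on the plus strand, with its match on the opposite strand at bases 171 to 176 and the gene at chr8:84901928-84905291.
Hba-a1: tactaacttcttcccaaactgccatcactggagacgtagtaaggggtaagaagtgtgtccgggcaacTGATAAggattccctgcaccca
Hbb-bs: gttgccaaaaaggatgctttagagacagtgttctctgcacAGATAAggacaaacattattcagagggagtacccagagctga
Alas2: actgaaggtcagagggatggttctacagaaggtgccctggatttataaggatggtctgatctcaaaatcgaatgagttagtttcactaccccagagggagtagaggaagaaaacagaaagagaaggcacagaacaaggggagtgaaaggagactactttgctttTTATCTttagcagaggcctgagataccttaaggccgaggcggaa
Klf1: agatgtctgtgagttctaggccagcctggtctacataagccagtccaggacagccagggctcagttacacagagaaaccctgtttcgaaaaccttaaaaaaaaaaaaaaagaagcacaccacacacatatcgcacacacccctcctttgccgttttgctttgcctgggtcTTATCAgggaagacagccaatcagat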

How the data were processed

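RNA of 21 sorted libraries in 7 groups of 3 was measured by paired-end sequencing. Per the submitters' processing notes, the authors aligned reads with STAR 2.5.1b to mm10, counted genes with RSEM 1.2.29, and normalized and regularized counts with DESeq2 1.10.1. The deposited values, made by the authors, were read as log2 values from their range (−2.33 to 22.4), although the methods name base 10. Of 26852 gene IDs, 26686 matched a symbol. The values hold no raw counts, so the sequencing depth of each library is unknown, and the summed signal (the sum of 2 to the power of each value) is not depth.

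Genes with a mean of at least 10 normalized counts were tested with limma 3.58.1 (R 4.3.3), with 1 linear model of 7 groups over all 21 libraries, empirical Bayes with a mean-variance trend, two-sided tests and Benjamini-Hochberg adjustment per comparison over all tested genes. Calls were at an adjusted p below 0.1. Summaries and figures used Python 3.11.15, numpy 2.4.6, pandas 2.3.3 and matplotlib 3.10.9. The fit was tested on simulated data. Lines were kept apart. The members and lists were chosen with earlier results of these data known. Named genes were all 33 members, up to 4 tested genes of each other list with the largest mean absolute early difference from ctrl, Ptprc, Pecam1, Nes and the gene with the highest value. Alternatives were no filter, a filter at 50 normalized counts, quantile normalization, rescaling to the mean library total, no trend, robust empirical Bayes, fits on the compared groups alone, the lines pooled, adjusted p below 0.05, shares without the highest gene, and leaving out each library. The test of the difference between HL60 and ML1 in early ch+ minus early ch- was added after the data were seen. Sequences came from RefSeq (GRCm38.p6), trimmed with the gene annotation. Some genes of the lists outside the members are not reported here.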

Additional observations from a re-analysis of the deposited data

Results flagged for a closer look

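Late libraries differed from early ch+ libraries of the same line in 32 called member values, listed together here although some also stand in the Results. They are listed because 2 time points of a line differed by the test of that difference. All 3 libraries of every group were used, and with 3 libraries a group no search for a library far from the others was made. The 4 globins differed by −6.43 (Hba-a1), −5.64 (Hba-a2), −7.10 (Hbb-bs) and −6.43 (Hbb-bt) with HL60. With ML1 they differed by −6.80, −5.78, −7.26 and −6.79 in the same order. Hemgn differed by −2.67 with HL60 and −3.15 with ML1, and Alas2 by −3.46 and −3.42.

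In the membrane group, Slc4a1 differed by −4.54 with HL60 and −4.29 with ML1, Sptb by −2.72 and −2.10, Epb42 by −1.71 and −1.79, Ermap by −1.53 and −1.92, and Add2 by −2.08 and −3.51. Car1 differed by −1.97 with HL60 and −3.24 with ML1. Called with HL60 and not with ML1 were Tal1 (−1.60), Tfrc (−1.96) and Bpgm (−1.23). Called with ML1 and not with HL60 were Fech (−0.70), Ank1 (−1.44), Klf1 (−1.77), Car2 (−1.93) and Prdx2 (−0.84). Whether these differences differ between the lines was not tested. Of 14 neutrophil markers, 11 were lower in each line, and their part was not tested.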

How the results depend on the processing

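Of 93 called member values, 67 stayed called in the same direction in every other setting that tested the gene (8 or 9 settings), 66 with each of 21 libraries left out, 66 in both, and 1 changed sign. Depth per library is not known, and 3 libraries a group limit what can be called. No paired analysis was possible because library numbers are not shared between groups and no label says which early ch+ and early ch- libraries share a mouse. Where values below moved, the cause was not tested, apart from filters and fits that change how many genes or libraries enter.

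With no filter on low values, genes called were 133 in HL60 early ch- against ctrl, 427 in HL60 early ch+, 178 in ML1 early ch-, and 1 and 8 between the lines in early ch- and early ch+. Members called between HL60 early ch+ and early ch- were 0, while with ML1 1 was called (Rhd, lower). Member medians were 0.93 in HL60 early ch+, −0.15 in HL60 late, 1.17 in ML1 early ch- and −0.24 in ML1 late against ctrl, and −1.24 with HL60 and −1.41 with ML1 for late against early ch+. With the filter at 50, 12 members were tested. Of these 12, 4, 4 and 4 were called in HL60 early ch-, early ch+ and late and 5, 5 and 5 with ML1. For early ch+ against early ch-, 0 of 12 were called in each line, and for late against early ch+ 5 and 8. The share of all genes called at this filter is not given here, so these counts describe the 12 members only. The other members were not tested at this filter, and 0 called values of members still tested changed. Medians were then 0.73 in HL60 early ch+, 0.65 in ML1 early ch-, 0.78 in ML1 early ch+, and −0.71 and −1.14 for late against early ch+.

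With quantile normalization, 4 genes were called between the lines in early ch+, and the globin share was 0.0743% in ML1 early ch- and 0.000654% in ML1 late. On rescaling, genes called were 5527 in HL60 late (5148 higher), 8781 in ML1 late (8171 higher), and 3913 (3552 higher) and 8311 (7761 higher) for late against early ch+ with HL60 and ML1. Member medians turned to 0.13 in HL60 late and 0.37 in ML1 late, and were −1.18 and −1.09 for late against early ch+. Fech in ML1 late against early ch+ turned to 0.058, and Eif2ak1 in ML1 late against ctrl to 0.17. With no trend, genes called were 170 in ML1 early ch-, and 0 and 0 between the lines in early ch- and early ch+. With robust empirical Bayes, 1 was called between the lines in early ch+.

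With fits on the compared groups alone, genes called were 126 in HL60 early ch-, 181 in ML1 early ch-, 552 in ML1 early ch+, and 4 and 990 between the lines in early ch- and late. Members called were 0 for ML1 early ch+ against early ch- and 2 between the lines in late. With the lines pooled, the early ch- median was 1.15, and genes called were 2795 in late, 812 for early ch+ against early ch- and 2555 for late against early ch+. Kit turned to 0.086 in late against ctrl, where ML1 late alone was lower, and to −0.12 in late against early ch+, where HL60 late alone was higher. At an adjusted p below 0.05, genes called were 133 in HL60 early ch-, 461 in HL60 early ch+, 178 in ML1 early ch- and 0 between the lines in early ch-, and members called were 0 for early ch+ against early ch- in both lines. Without the highest gene, the globin share was 0.00502% in ctrl, 0.0746% in HL60 early ch-, 0.00122% in HL60 late, 0.0903% in ML1 early ch-, 0.0953% in ML1 early ch+ and 0.00119% in ML1 late.

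With each library left out, genes called ranged from 106 to 227 in HL60 early ch-, 180 to 340 in ML1 early ch-, 295 to 541 for HL60 early ch+ against early ch-, and 0 to 10 and 0 to 6 between the lines in early ch- and early ch+. Members called ranged from 0 to 1 for early ch+ against early ch- in both lines and between the lines in late. Medians ranged from 0.62 to 1.02 in HL60 early ch-, 1.04 to 1.44 in HL60 early ch+, 1.32 to 1.58 in ML1 early ch-, −0.65 to −0.28 in ML1 late, and −1.96 to −1.47 and −2.27 to −1.60 for late against early ch+ with HL60 and ML1.

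Among single members, calls lost were 21 with no filter, 16 on rescaling, 12 at an adjusted p below 0.05, 7 with no trend, 6 in fits on the compared groups, 5 with the lines pooled, 4 with quantile normalization and 0 with robust empirical Bayes, the 1 reversal included. Among other named genes 33, 29, 24, 25, 11, 27, 4 and 4 values changed in that order.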
